A study of Homo sapiens with 2 samples.

Results

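The genes described here are 10 that serve protein folding in the endoplasmic reticulum (ER) and the response to its overload. They are PDIA3, PDIA4, PDIA6, P4HB, CALR, CANX, HYOU1, SDF2L1, XBP1 and DDIT3. They were chosen by name, and all probes whose platform symbol is 1 of these names were taken, which gave 13 probes of the 48802 on the array and 10 genes of 18665. PDIA4 and PDIA6 had 1 probe each, as did PDIA3, P4HB, CALR, SDF2L1 and DDIT3, while CANX, HYOU1 and XBP1 had a pair. The RNA came from KYN2, an established cell line of human hepatocellular carcinoma, and was measured on Illumina HumanWG-6 BeadChips. The 2 groups were cells made to carry a plasmid for a short hairpin RNA against HSF1 and kept under puromycin, and control cells, for which the labels do not name a plasmid. The labels do not say whether the stable line was 1 clone or a pool. Each group is 1 array, so the differences cannot be set against a spread between replicates and no p-value can be had.

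Proteins that enter the secretory pathway fold in the ER with the help of an Hsp70 and Hsp90 system, the sugar-binding chaperones calnexin and calreticulin, and enzymes of the protein disulfide isomerase family. When unfolded proteins build up, the sensors IRE1, PERK and ATF6 start the unfolded protein response, which raises the genes of these same helpers through the transcription factors XBP1 and ATF6, and DDIT3 (CHOP) through ATF4. HSF1 is the main factor of the separate heat shock response, which serves the cytosol and nucleus. Hepatocytes secrete most plasma proteins and have a large ER.

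Among these genes, SDF2L1 stood alone at more than 2-fold. It was 3.26-fold lower on the array labelled HSF1 knockdown. The other 8 detected genes lay within 2-fold. CANX, PDIA4, PDIA6 and DDIT3 were at -0.48 to -0.54 on the log2 scale, HYOU1 at -0.28, and CALR, P4HB and XBP1 at -0.03 to 0.24. PDIA3 was not detected on either array. HSPA5, which encodes the central ER chaperone BiP and works with SDF2L1 and HYOU1, was 2.20-fold lower. Both arrays detected 9 of the genes, of which 1 was at least 2-fold lower and 0 were at least 2-fold higher. Among all 7511 genes that both arrays detected, the share at least 2-fold lower was 10.4% and the share at least 2-fold higher 9.89%, so 1 of 9 is near the background. The median difference of the 9 was -0.48 on the log2 scale, against -0.06 over all genes, and 7 of the 9 lay below 0, as did 53.3% of all genes. XBP1 counts among the 7 by -0.03 alone.

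Values named signals are the deposited bead intensities. Fold changes and differences are knockdown-labelled against control after background correction and normalization, on the log2 scale unless called fold. A gene counts as higher or lower where the difference reached 2-fold, which is a rule of size with no test, and a probe was called detected at a detection p under 0.01. Over 1352 genes with a pair of detected probes, the differences of 1 probe had an SD of 0.34, from the disagreement within pairs, and in 78 pairs the probes lay 1 or more apart. This SD covers the error of probes and leaves out variation between cultures.

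The probes of HSF1 itself did not settle the label. For ILMN_1667060 the signal was 58.2 on the knockdown-labelled array, against 164.3 on the control array. Its detection values, taken from the detection column beside each signal column since these columns name no sample, ran the other way, at 1.0 on the knockdown-labelled array and 0.99473 on the control array. The 305 probes nearest to it in signal on the knockdown-labelled array (within 0.1) had detection values of 0.760 to 0.764. On the control array its value also broke the order. There a probe of MBTPS2 with a lower signal, 141.5, had a smaller detection p, 0.00264 against 0.00527 for this HSF1 probe. The probe ILMN_1665621 had signals of 81.3 on the knockdown-labelled array and 77.9 on the control array, and was not called detected on either array. The arrays are therefore named by their labels, and every direction rests on those labels.

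Of 12 hepatocyte markers with a probe, 10 were detected on both arrays, TTR on the knockdown-labelled array alone and FGB on the control array alone. ALB had signals of 20949.9 on the knockdown-labelled array and 19292.5 on the control array, a difference of 0.12, while AHSG was at -2.23, with 899.8 on the knockdown-labelled array and 4602.2 on the control array, and APOB at -1.91, with 631.8 on the knockdown-labelled array and 2566.0 on the control array. FGA was also below 0, at -0.74. Above 0 lay KRT8 (0.94), TF (0.81), SERPINA1 (0.64), APOA1 (0.30), KRT18 (0.22) and APOA2 (0.04). The summed signals of the 12 were 90393.1 on the knockdown-labelled array and 82094.9 on the control array. No marker of lymphoid, endothelial, or fibroblast and stellate cells was detected, out of 5, 4 and 7. Of 6 myeloid markers, 3 were detected on the knockdown-labelled array and 1 on the control array, with summed signals of 1439.7 on the knockdown-labelled array and 854.3 on the control array. LYZ had signals of 667.2 on the knockdown-labelled array and 78.0 on the control array and CD14 256.7 on the knockdown-labelled array and 76.0 on the control array, CD68 had 353.5 on the knockdown-labelled array and 521.9 on the control array, and PTPRC, CSF1R and AIF1 were detected on neither. Of 4 biliary markers, 2 (SOX9 and EPCAM) were detected on the knockdown-labelled array and 0 on the control array, with summed signals of 860.6 on the knockdown-labelled array and 231.7 on the control array, and KRT7 and KRT19 were detected on neither. The part of these markers in the results was not tested, and in RNA of whole cultures fewer cells of a type and less RNA per cell cannot be told apart.

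The unfolded protein response is known to act through short elements near gene starts. Matches to such elements were found in 6 of the genes and are shown. RefSeq windows of 300 bases, from 250 before to 50 after each annotated start (GRCh38.p14), were found for 9 of the 10 genes. They were searched on both strands for the ER stress element ERSE (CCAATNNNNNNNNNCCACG) and for ERSE-II (ATTGGNCCACG), which are read by ATF6 and XBP1 with the factor NF-Y at the CCAAT part. ERSE was in a window of 25 of 27305 genes (0.0916%) and ERSE-II in 19 (0.0696%). Among the 9 genes, ERSE was found in PDIA6, CALR, CANX and XBP1, and ERSE-II in SDF2L1 and in HYOU1, at 2 places. Neither was found in PDIA4, P4HB or DDIT3, where only exact matches were counted. The DDIT3 windows hold a stretch that departs from ERSE in its last base alone. Near matches in other genes were not sought. The sites are given below 5′ to 3′ on their own strand, with the letters fixed by the element in capitals.
SDF2L1, ERSE-II, chr22:21642114-21642124: ATTGGtCCACG
HYOU1, ERSE-II, chr11:119057380-119057390: ATTGGaCCACG
HYOU1, ERSE-II, chr11:119057274-119057284: ATTGGaCCACG
PDIA6, ERSE, chr2:10812853-10812871: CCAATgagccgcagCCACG
CALR, ERSE, chr19:12938384-12938402: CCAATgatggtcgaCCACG
CANX, ERSE, chr5:179698778-179698796: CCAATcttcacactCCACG
XBP1, ERSE, chr22:28800603-28800621: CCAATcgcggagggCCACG
HSPA5, ERSE, chr9:125241391-125241409: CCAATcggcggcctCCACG
HSP90B1, ERSE, chr12:103930216-103930234: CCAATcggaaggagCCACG
HSP90B1, ERSE, chr12:103930321-103930339: CCAATcgcgccgcaCCACG

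SDF2L1 and HYOU1 share ERSE-II but differed in size of difference, so both windows are printed whole, on the strand of the gene. The capitals mark ERSE-II, which lies on the opposite strand in both genes and reads CGTGG, 1 base, CCAAT here. In HYOU1 the capitals of the first site also take in the XBP1 site TGACGTGG, which overlaps it. The XBP1 site was found in no other of the 9 genes and in 0.927% of all genes.
SDF2L1, chr22:21642052-21642351, plus strand: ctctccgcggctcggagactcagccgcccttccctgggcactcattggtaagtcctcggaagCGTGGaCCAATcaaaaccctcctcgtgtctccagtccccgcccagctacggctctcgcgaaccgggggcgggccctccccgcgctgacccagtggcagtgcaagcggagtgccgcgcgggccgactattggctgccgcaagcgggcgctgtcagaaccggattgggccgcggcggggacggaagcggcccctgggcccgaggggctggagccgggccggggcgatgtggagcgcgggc
HYOU1, chr11:119057156-119057455, minus strand: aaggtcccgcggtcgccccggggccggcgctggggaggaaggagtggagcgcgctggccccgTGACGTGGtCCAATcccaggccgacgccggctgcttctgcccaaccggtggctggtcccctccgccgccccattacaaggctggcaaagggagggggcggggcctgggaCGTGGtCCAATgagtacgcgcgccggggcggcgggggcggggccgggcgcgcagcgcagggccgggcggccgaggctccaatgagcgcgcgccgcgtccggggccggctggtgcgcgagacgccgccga

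A heat shock element of 3 units (GAANNTTCNNGAA, both strands) was in the windows of 0 of the 9 genes and of 0.608% of all genes. The amino acid response element (TGATGNAA, both strands), which ATF4 can bind, was in 0 of the 9 and in 4.46% of all genes. Absence says only that these letters are not in these windows, and a match is a match of letters.

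SDF2L1 encodes a small ER protein that joins the BiP complex and helps keep client proteins from aggregating. Its signal was 1006.8 on the knockdown-labelled array and 3606.1 on the control array. The difference was -1.71, and 2.17% of the genes detected on both arrays had a lower one. It was between -1.84 and -1.63 in all 7 alternative settings, though those by detection p and by mean of probes could not move it. Its signal was far above background on both arrays. HYOU1 encodes Grp170, a large relative of Hsp70 that exchanges the nucleotide of BiP. Its probe ILMN_2141790 had signals of 296.2 on the knockdown-labelled array and 376.9 on the control array, and ILMN_1673649 had 251.7 on the knockdown-labelled array and 281.8 on the control array. The differences were -0.28 and -0.10, both within the SD of a single probe.

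The main partners of this pair lay between them. HSPA5 had a signal of 172.0 on the knockdown-labelled array and 346.3 on the control array, a difference of -1.14. In 3 of the 5 alternative settings that could move its difference it did not reach 2-fold, and it was at -0.93 in the authors' processed values. HSP90B1 encodes Grp94, the Hsp90 of the ER. It had signals of 4232.5 on the knockdown-labelled array and 6133.0 on the control array, a difference of -0.34, about the SD of a single probe. DNAJB11, an ER co-chaperone that binds SDF2L1, was chosen after its value was seen and lay the other way, at 0.49, with signals of 5355.3 on the knockdown-labelled array and 4369.0 on the control array. SDF2, the close relative of SDF2L1, was likewise chosen after its value was seen and was at -0.22.

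**Figure D1:**
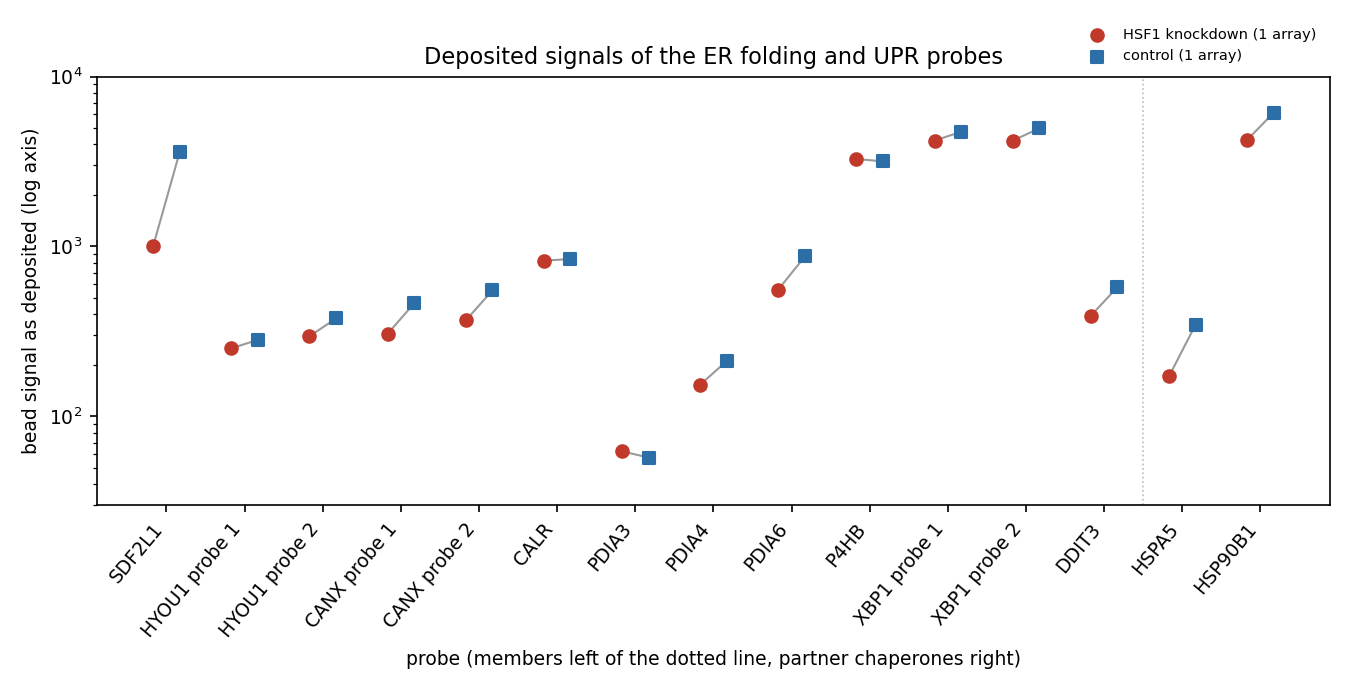
Deposited bead signals (log axis) of every probe of the 10 genes and of HSPA5 and HSP90B1, with the array labelled HSF1 knockdown as red circles and the control array as blue squares, 1 array each. SDF2L1 has the steepest line of the 13 probes, at 1006.8 on the knockdown-labelled array and 3606.1 on the control array, and the levels of different probes are not comparable.

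The lectin chaperones both lay within 2-fold. CANX, the membrane-bound calnexin that holds newly glycosylated proteins, lay below 0 by both of its probes. Probe ILMN_2401057 had signals of 366.9 on the knockdown-labelled array and 550.4 on the control array, and ILMN_1762825 had 306.1 on the knockdown-labelled array and 462.8 on the control array. The differences were -0.52 and -0.55, which differ from each other by less than the SD of a single probe. CALR, the soluble calreticulin, had signals of 824.2 on the knockdown-labelled array and 843.5 on the control array. Its difference was 0.13, within the SD of a single probe, and it was -0.03 from the signals as deposited. PDIA3 (ERp57), the disulfide isomerase that both lectins recruit, had signals of 62.3 on the knockdown-labelled array and 57.2 on the control array. Its detection p was 0.13 on the knockdown-labelled array and 0.37 on the control array, so its only probe was not above background and no fold is given.

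The disulfide isomerases that act outside the lectin cycle also lay within 2-fold. PDIA6 (P5), a partner of BiP, had signals of 557.7 on the knockdown-labelled array and 872.8 on the control array, a difference of -0.54. PDIA4 (ERp72) had 153.5 on the knockdown-labelled array and 211.7 on the control array, also a difference of -0.54. P4HB, the founding disulfide isomerase and also the beta subunit of collagen prolyl 4-hydroxylase, was well above background on both arrays, at 3271.4 on the knockdown-labelled array and 3164.8 on the control array. Its difference was 0.24, within the SD of a single probe. The alpha subunits that pair with P4HB lay on either side of it. P4HA2 was 3.64-fold lower, with signals of 118.6 on the knockdown-labelled array and 336.6 on the control array. P4HA1, chosen after its value was seen, was at 0.74, with 399.9 on the knockdown-labelled array and 272.6 on the control array.

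Both transcription factors of the set lay within 2-fold. XBP1, the factor activated when IRE1 splices its RNA, differed little by either probe. Probe ILMN_2365465, which the annotation ties to NM_001079539, had signals of 4193.8 on the knockdown-labelled array and 4951.9 on the control array. Probe ILMN_1809433, tied to NM_005080, had 4200.9 on the knockdown-labelled array and 4725.9 on the control array. The differences were -0.03 and 0.04. These transcripts are the spliced and the unspliced form, but whether the probes tell them apart was not determined, since no probe sequence was used here. DDIT3, which encodes the stress factor CHOP, had signals of 391.4 on the knockdown-labelled array and 575.9 on the control array, a difference of -0.48.

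**Figure D2:**
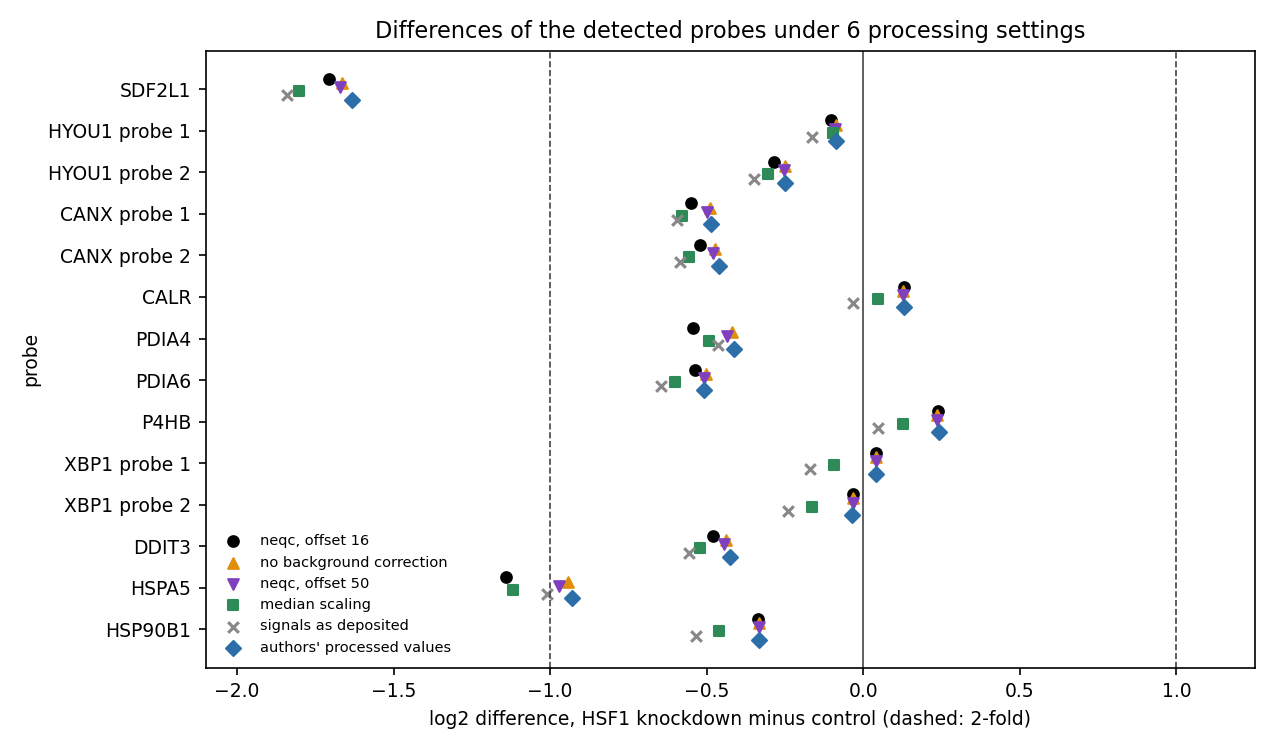
Differences (log2, knockdown-labelled minus control) of the 12 detected probes of the set and of HSPA5 and HSP90B1 under 6 ways of processing, 1 symbol each, with dashed lines at 2-fold. SDF2L1 lies beyond the line in all 6 ways shown, HSPA5 straddles it, and CALR and 1 XBP1 probe cross 0.

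Set among all genes, the -0.48 to -0.54 of CANX, PDIA4, PDIA6 and DDIT3 is not far out. The lower quartile of all differences was -0.52, and 24.0% to 27.0% of genes had a lower difference than these 4. HYOU1 had 36.8% of genes below it, XBP1 51.5%, CALR 60.5% and P4HB 65.5%.

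**Figure D3:**
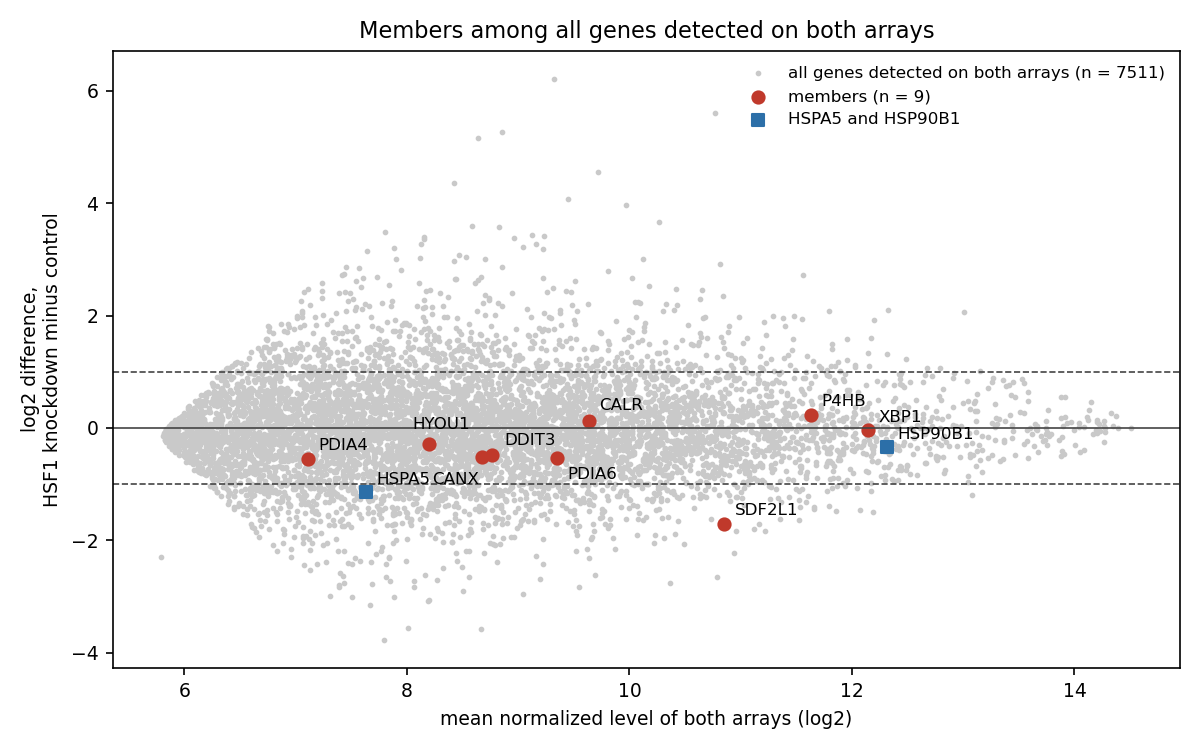
Difference (log2, knockdown-labelled minus control) against mean normalized level of both arrays for the 7511 genes detected on both, in grey, with the 9 detected genes of the set in red and HSPA5 and HSP90B1 in blue. SDF2L1, at -1.71, lies below the lower dashed 2-fold line, and the other 8 lie inside both lines.

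The genes that share an element with the set are described with no test, and the elements were chosen with earlier results of these arrays known. Of 12 genes with ERSE detected on both arrays, 10 lay below 0, 1 (HSPA5) was at least 2-fold lower and 0 were at least 2-fold higher, with a median of -0.42. Leaving out the 4 from the set, 7 of 8 lay below 0 with the same median of -0.42, namely HSPA5, EIF2A (-0.85), SERP1 (-0.59), ZNF17 (-0.51), HSP90B1, TMEM120A (-0.26) and CRELD2 (-0.13), with TRIM5 (0.38) above. Of the 10 below 0, XBP1 (-0.03), CRELD2 and TMEM120A lay within the SD of a single probe, and HSP90B1 (-0.34) was at about that SD. CALR (0.13), above 0, also lay within it. EIF2A and SERP1, which encodes a factor protecting membrane proteins in the ER, share 1 element between their starts. Of 10 genes with ERSE-II, 5 lay below 0, with a median of 0.06. SDF2L1 and RUVBL2 (-1.11) were at least 2-fold lower and PLS3 (1.13) at least 2-fold higher. RUVBL2 shares its element with GYS1 (0.29). For the other elements, 38 of 79 detected genes with the XBP1 site lay below 0, 16 of 31 with the heat shock element and 85 of 173 with the amino acid response element. Over all genes the share below 0 was 53.3%, as given above. Several of the 12 ERSE genes serve 1 pathway, and these counts describe these arrays.

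**Figure D4:**
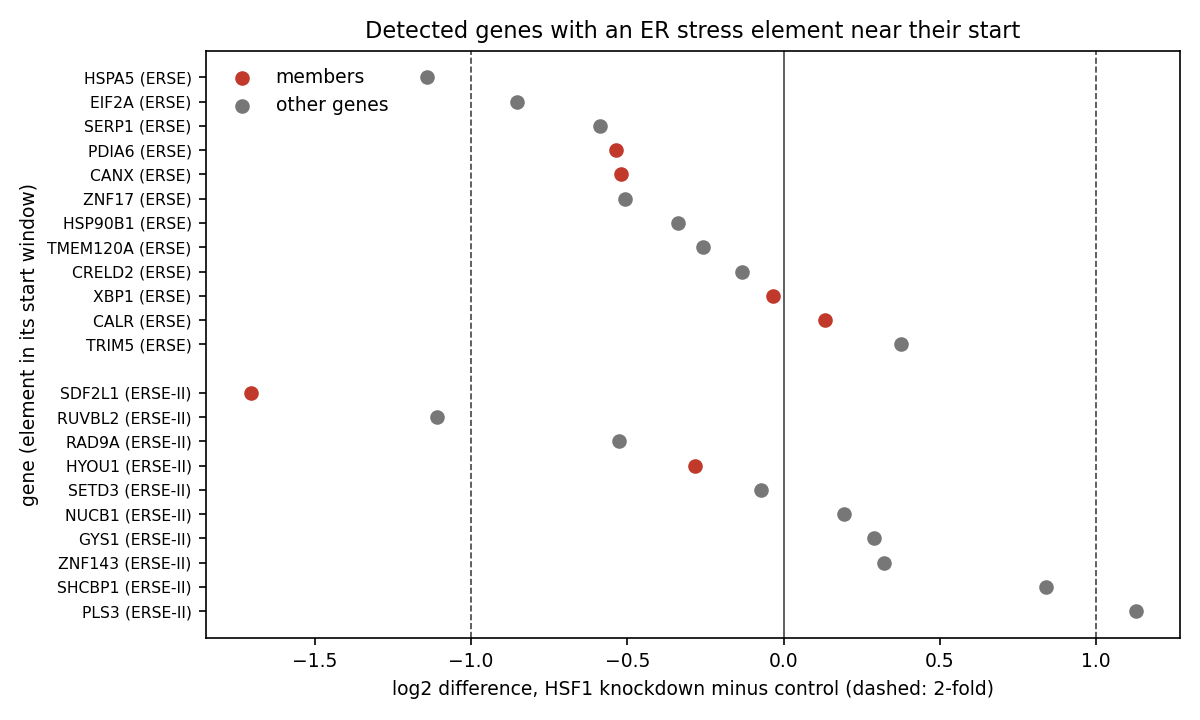
Difference (log2, knockdown-labelled minus control) of each detected gene with ERSE (upper block) or ERSE-II (lower block) in a start window, with genes of the set in red and others in grey. In the upper block 10 of 12 genes lie left of 0, and in the lower block 5 of 10 do.

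Genes of the wider ER pathway lay on both sides of 0. Over 9 lists with 157 genes detected on both arrays, 11 genes were at least 2-fold lower, 13 at least 2-fold higher and 133 within 2-fold, with a median of -0.02. Over all genes detected on both arrays, 10.4% were lower and 9.89% higher by that rule, so the lists as a whole are near or under the background, and most single lists are too small for their counts to be read against it. Detection on a single array was seen for 9 more on the knockdown-labelled array and 3 more on the control array, none of them with a bound of 2-fold or more. In the Hsp70 and Hsp90 system, HSPA5 was the 1 of 11 beyond 2-fold, and CNPY3 (0.99), CNPY4 (0.76) and the BiP co-chaperone DNAJB9 (0.60) had the next largest differences. The other detected probe of CNPY3 was at 0.37. Of 16 other thiol oxidoreductases and prolyl isomerases, P4HA2 (-1.86) and FKBP11 (-1.62) were lower and FKBP14 (1.16) higher. The prolyl isomerase FKBP11 had signals of 1428.0 on the knockdown-labelled array and 4958.8 on the control array. FKBP14 rests on 1 probe, since its other probe was at -0.53. The disulfide isomerase TXNDC5 was at -0.97.

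Around calnexin and calreticulin, 10 of 11 genes lay within 2-fold. UGGT2, of the enzymes that tag unfolded glycoproteins for another round, was at 1.21 and its relative UGGT1 at -0.60. MAN1B1, a trimming mannosidase, was at 0.74 and the cargo receptor LMAN1 at -0.54. Of 22 genes of ER-associated degradation, which sends failed proteins to the proteasome, 2 were lower. These were the ubiquitin-conjugating enzyme UBE2J1 (-1.44) and NGLY1 (-1.15), which strips glycans. EDEM1, a target of XBP1, was at -0.85 and the ubiquitin ligase RNF5 at 0.97.

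Of 14 sensors and factors of the unfolded protein response, 4 were higher and 1 lower. CREB3L3, a liver-enriched ER-bound factor, was highest, at 2.15, with signals of 641.5 on the knockdown-labelled array and 185.6 on the control array. PPP1R15A (GADD34), which restarts translation, was at 1.71, with 1475.6 on the knockdown-labelled array and 531.0 on the control array. ATF3 was at 1.51, with 229.7 on the knockdown-labelled array and 109.0 on the control array, and TMBIM6 at 1.07. CREB3L2, a relative of CREB3L3, was lower at -1.95, with 269.6 on the knockdown-labelled array and 1007.7 on the control array. DDIT3 thus lay below 0 while PPP1R15A and ATF3, which ATF4 also drives, lay above. ATF4 itself was at 0.43, EIF2AK3 (PERK) at -0.06 and ATF6 at -0.37, all chosen after their values were seen.

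Of 25 targets of ATF4 and CHOP, 4 were higher and 1 lower, with a median of -0.25. The higher genes were CTH (1.98), of cysteine synthesis, the secreted GDF15 (1.96), the amino acid carrier chain SLC3A2 (1.42) and NUPR1 (1.32). The lower gene was SLC7A5 (-1.84), the partner chain of SLC3A2 in the same carrier. It had signals of 1032.9 on the knockdown-labelled array and 4037.7 on the control array. TRIB3 (-0.09) and ASNS (-0.53), common readouts of ATF4 chosen after their values were seen, lay within 2-fold.

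Of 31 genes of ER import, signal peptidase and oligosaccharyl transfer, 3 were lower and 3 higher. Subunits of the translocon-associated complex were on both sides, with SSR3 at -2.08 and SSR1 at -1.22 against SSR4 at 1.41. SSR3 was near the detection floor on the knockdown-labelled array, with a signal of 94.0 against 274.9 on the control array. It was at -1.51 without background correction. SSR4 was well above background, at 5629.2 on the knockdown-labelled array and 2459.2 on the control array. SRP72, of the signal recognition particle, was at -1.15. SEC61A2 was at 1.38 and MAGT1 at 1.03. Of 14 genes of secreted targets and ER calcium handling, 0 were beyond 2-fold by their brightest probe, and the largest differences were in STIM1 (-0.85), SDF4 (0.68), SERP1 (-0.59) and CALU (0.59). ATP2A2, chosen after its values were seen, was at 0.39 by its brightest probe, but the lowest of its 3 detected probes was at -1.33. Of 14 genes of transport from the ER to the Golgi, TMED10 (-1.04) was lower, SEC24A was at -0.77, SEC24B at -0.62 and SEC23A at 0.93. Of the list genes beyond 2-fold, HSPA5, FKBP14, UGGT2, TMBIM6, SEC61A2, MAGT1 and TMED10 did not reach it in 2 to 5 of the 7 alternative settings. The setting by detection p could not move these differences, nor could the mean of probes for any of them but FKBP14.

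**Figure D5:**
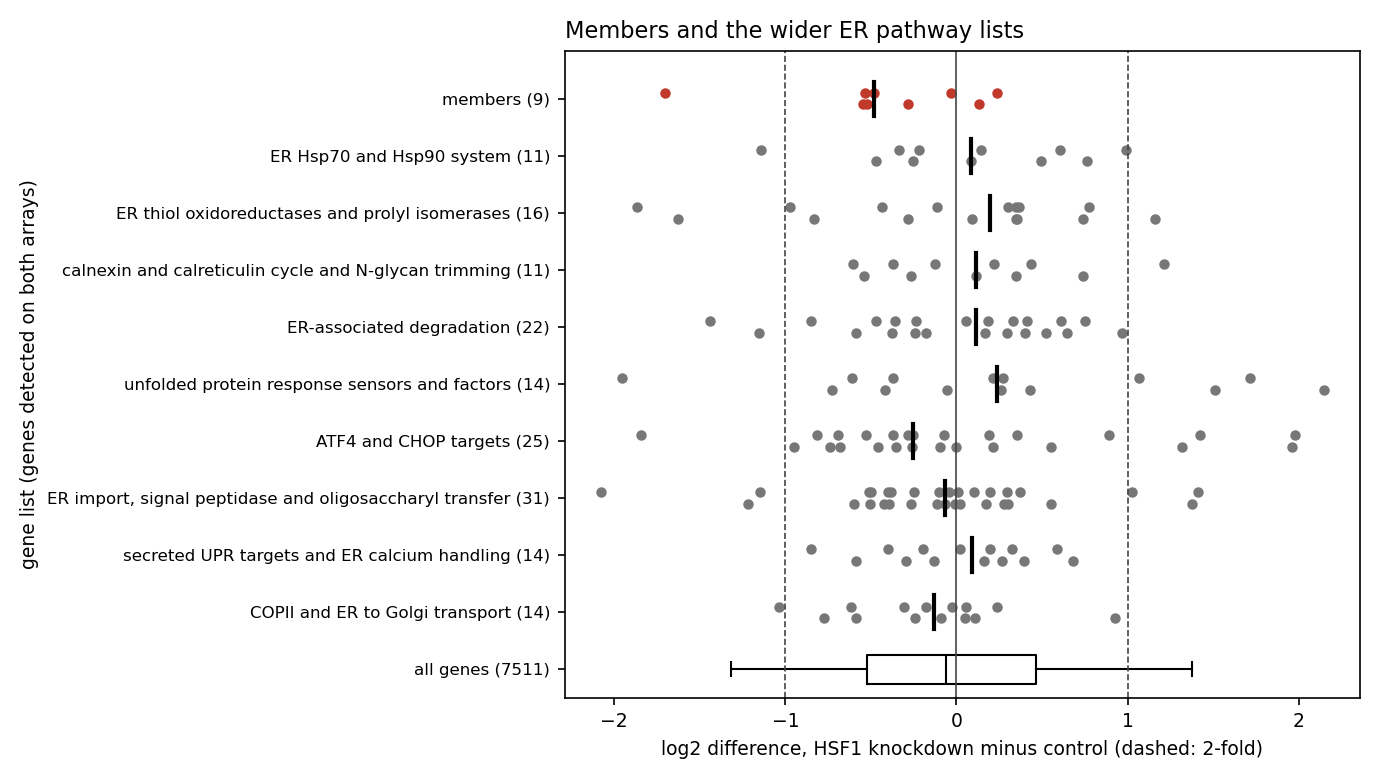
Differences (log2, knockdown-labelled minus control) of the 9 detected genes of the set in red and of 9 wider ER lists in grey, 1 point a gene, with black bars at list medians and the number of genes in brackets. The bottom box gives the quartiles of all 7511 genes, with whiskers from -1.32 to 1.38 at the 5th and 95th percentiles. The set's points run from -1.71 to 0.24.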

How the data were processed

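Signals of 2 arrays (1 a group, assigned from the labels) were used. Per the file headers, the authors deposited a non-normalized signal (a linear bead intensity) and a detection column. The deposited detection values are a fraction that in general rises with the signal (an HSF1 probe is an exception) and were subtracted from 1 to give a detection p. Their columns name no sample and were paired with the signal column beside them, with a Spearman correlation across probes of 0.995 on the knockdown-labelled array and 0.997 on the control array, against 0.844 and 0.846 with the other signal column. The authors' deposited processed table holds log2 values centred near 0, with medians of -0.0028 (knockdown-labelled) and 0.0022 (control). Its differences followed the log2 ratio of signals with slope 0.981 and r = 0.996 across 10804 probes, and its baseline is unknown. The software used is not given in the sources used here.

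Signals were processed in R 4.3.3 by the neqc function of limma 3.58.1 (normal-exponential background, offset of 16, quantile normalization, log2). The offset shrinks differences of dim genes, while the background correction widens them, so they are not the smallest of the settings. Without background correction P4HA2 was at -1.46 in place of -1.86, SSR3 at -1.51 in place of -2.08 and SEC61A2 at 0.99 in place of 1.38. The platform annotation of 2016 named 1 gene for 27577 probes, more than 1 for 13 and left 21212 unnamed. Each gene was represented by its brightest probe. The precision is limited by the number of arrays. The procedure was tested on simulated data with known folds. The noise in that simulation was set and not measured from these arrays, so it does not give the error of the 2-fold calls here.

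The genes, lists and motifs were chosen with earlier results of these data known. Named from the lists were every gene beyond 2-fold and the 4 with the largest difference, detected on both arrays. Alternatives were no background correction, an offset of 50, median scaling, the authors' values, signals as deposited, a detection p under 0.05 and the mean of detected probes.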

Additional observations from a re-analysis of the deposited data

How the results depend on the processing

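In all 7 alternative settings 1 gene of the set (SDF2L1) was at least 2-fold lower and 0 were higher, and the set's median lay between -0.49 and -0.41. Of 63 values for single genes of the set, 2 changed sign, CALR at -0.0334 from the signals as deposited and XBP1 at 0.0042 with the mean of its probes. Both lie within the SD of a single probe. In the wider ER lists, the count at least 2-fold higher was 13, and 8 to 13 in the alternatives, with 8 from the signals as deposited. The count at least 2-fold lower was 11, and 9 to 12 in the alternatives. Of 287 values for named genes of these lists, 25 moved to under 2-fold, 2 moved beyond it and 0 changed sign. The 25 were in MAGT1 (5 of 7 settings), FKBP14, UGGT2 and TMED10 (4 each), HSPA5 and SEC61A2 (3 each) and TMBIM6 (2), and the cause was not tested. The 63 and 287 values include some that could not move. These are all values with a detection p under 0.05, and those by mean of probes for genes with 1 detected probe. In the 5 settings that could move a gene with 1 detected probe, MAGT1 reached 2-fold in 0. UGGT2 and TMED10 reached it in 1 each, HSPA5 and SEC61A2 in 2 each and TMBIM6 in 3. TXNDC5 moved beyond 2-fold with median scaling and with the signals as deposited. No paired analysis was possible because each group holds 1 array. With 1 array a group no replicate could be left out. The probe of PDIA3 was not above background on either array, also at a detection p under 0.05, so no setting gives a usable difference for it.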
